A study of Rattus norvegicus with 45 samples.

Results

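The genes described here are 35 rat genes for the protein machinery of the presynaptic terminal: the transporters that load synaptic vesicles with glutamate, the proteins of the vesicle membrane, the SNARE proteins and their partners, the calcium sensors and priming factors, the active zone and Rab3 cycle, and the proteins of vesicle endocytosis. They were chosen by name. The array carried at least 1 probe set for 34 of the 35, and Doc2a had none here. The 34 genes were read by 55 of the 31042 probe sets that are not array controls, and each gene was represented by its brightest probe set. The probe sets as a whole name 12577 genes. The series measured RNA from the CA1, CA3 and dentate gyrus (DG) of the hippocampus of 15 male F344xBN rats on Affymetrix RAE 230 2.0 arrays, with 1 array for each region of each rat and 45 arrays in all. The 6 restricted rats were 28 months old and had been fed a calorie-restricted diet that was stepped through 10% and 25% from 14 weeks of age and held at 40% from 17 weeks; 3 were poor performers and 3 good performers in a behavioural test that the labels do not describe. The 6 old ad libitum rats were 28 months old, 3 poor and 3 good performers, and ate freely. The 3 middle-aged rats were 18 months old, ate freely and carry no performance class. No restricted middle-aged rats were measured, and the tissue was cut by hand, so each array reads all the cells of a region.

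At a chemical synapse, an action potential opens calcium channels in the terminal, and calcium binding to synaptotagmins triggers the SNARE proteins to fuse a docked vesicle with the membrane. NSF and its adaptor alpha-SNAP then take the spent SNARE complex apart, and clathrin, dynamin, amphiphysin and synaptojanin recover the membrane for the next cycle. In the hippocampus most vesicles of the principal cells carry glutamate loaded by the vesicular transporter VGLUT1 (Slc17a7). Much of the presynaptic protein in a region belongs to axons whose cell bodies, and therefore whose RNA, lie elsewhere: the RNA measured in CA1 reports the neurons of CA1, not the CA3 axons that end there. In bulk tissue, fewer neurons and less RNA per neuron cannot be told apart.

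Of the 34 genes, Bsn, Unc13a, Syt2 and Rph3a, which encode bassoon, Munc13-1, synaptotagmin 2 and rabphilin, lay below the filter on low signal (a mean above the 40th percentile of all probe sets) in each table used, and are not described further. Rims1 (RIM1) passed only in the value table, in the comparisons of the old rats and of restricted with middle-aged rats, Syngr1 (synaptogyrin 1) only in the dChip table of the ad libitum rats, and Sv2c only in the dChip tables. Tests were therefore run on 29 of the genes for age and region and on 28 for diet. Expression was deposited as 2 signals, a dChip signal (a model-based summary of a probe set's intensities) and the values of the series' value table, and each difference is on the log2 scale after adding 16 to the signal. The dChip signal is the one reported unless the value table is named. The dChip signals of the ad libitum rats and those of the old rats stand in separate tables that were normalised separately, so levels are compared within a table only. For groups of 6 or 9 arrays the lowest, median and highest signal are given, and for groups of 3 the signal of each array.

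The arrays fell into 3 sets by the signal of the DapX poly-A control, an RNA added before labelling. Set A held the 9 arrays of the middle-aged rats (256.8 to 332.1 in the value table), set B held 22 arrays (70.02 to 127.8) and set C held 14 arrays (1.78 to 6.758). All arrays of the old ad libitum rats were in set B. Of the restricted arrays, the 3 CA1 arrays of good performers and 1 CA3 array of a good performer (replicate 1) were in set B, and the other CA1 and CA3 arrays and all 6 DG arrays were in set C. Age and set therefore cannot be told apart, nor can diet and set in DG. The authors marked 2 arrays of 1 restricted poor performer as outliers, the CA1 array (replicate 3) and the CA3 array (replicate 4). Their 3′ to 5′ GAPDH ratios were 7.64 and 6.08, against 1.49 to 3.37 on the other 43 arrays. They also carried RNA of markers of the thalamus: Shox2 read 123 and 374 on them and at most 14.2 elsewhere in the value table, and Tcf7l2 read 52.5 and 206 against at most 16.3. Prkcd, Lef1 and Calb2 also read higher on both than on any other array, whereas Lhx9, Ramp3 and Tac1 lay within the range of the others. The summed signal of the 8 thalamus and habenula markers was 1000.2 and 1539 on the marked arrays and 279 to 652 on the others. Results for diet in CA1 and CA3 are given with and without them. Markers of DG and CA3 followed the labels in the ad libitum rats. All 5 dentate granule cell markers tested were higher in DG than in CA1, beside 8.13% of all probe sets. Of the CA3 pyramidal markers, 6 of 7 were higher in CA3 than in CA1, beside 8.79%. Counts for the CA1 pyramidal markers between regions are not given here.

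RefSeq promoters (250 bases before to 50 after the annotated start, GRCr8) were at hand for 31 of the 34 genes. Those of Slc17a7 (chr1:104785955-104786254, plus strand), Syn1 (chrX:3725495-3725794, plus strand), Vamp2 (chr10:54292539-54292838, plus strand) and Syp (chrX:17536400-17536699, minus strand) are shown as the transporter and vesicle genes among the 8 that rose with restriction in DG in both signals, and that of Cplx2 (chr17:10236704-10237003, minus strand) because it fell there in both. Capitals mark matches, on either strand, to the cyclic AMP response element TGACGTCA or to the EGR1 site GCGGGGGCG.
Slc17a7: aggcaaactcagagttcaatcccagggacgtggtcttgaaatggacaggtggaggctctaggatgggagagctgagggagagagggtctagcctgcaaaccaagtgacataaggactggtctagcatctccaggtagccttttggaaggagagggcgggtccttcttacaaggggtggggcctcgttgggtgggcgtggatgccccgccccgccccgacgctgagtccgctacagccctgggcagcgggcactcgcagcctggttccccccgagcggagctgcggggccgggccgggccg
Syn1: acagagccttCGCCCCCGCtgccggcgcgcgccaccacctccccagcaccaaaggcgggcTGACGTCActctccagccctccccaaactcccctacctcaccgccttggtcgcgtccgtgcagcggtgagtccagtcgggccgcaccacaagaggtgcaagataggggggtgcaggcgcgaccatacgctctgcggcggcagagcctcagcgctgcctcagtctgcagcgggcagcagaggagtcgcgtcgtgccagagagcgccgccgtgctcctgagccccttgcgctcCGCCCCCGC
Vamp2: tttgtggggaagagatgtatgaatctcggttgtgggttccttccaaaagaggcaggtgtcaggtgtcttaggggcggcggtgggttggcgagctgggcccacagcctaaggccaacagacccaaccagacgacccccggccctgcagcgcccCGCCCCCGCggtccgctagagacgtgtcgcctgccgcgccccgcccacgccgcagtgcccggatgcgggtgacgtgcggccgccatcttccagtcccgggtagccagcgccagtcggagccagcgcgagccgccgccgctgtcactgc
Syp: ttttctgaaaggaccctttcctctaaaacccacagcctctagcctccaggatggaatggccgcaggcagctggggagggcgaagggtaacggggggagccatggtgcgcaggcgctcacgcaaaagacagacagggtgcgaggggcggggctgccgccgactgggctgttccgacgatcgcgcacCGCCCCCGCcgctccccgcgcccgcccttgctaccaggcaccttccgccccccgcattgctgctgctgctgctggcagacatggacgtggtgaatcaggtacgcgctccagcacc
Cplx2: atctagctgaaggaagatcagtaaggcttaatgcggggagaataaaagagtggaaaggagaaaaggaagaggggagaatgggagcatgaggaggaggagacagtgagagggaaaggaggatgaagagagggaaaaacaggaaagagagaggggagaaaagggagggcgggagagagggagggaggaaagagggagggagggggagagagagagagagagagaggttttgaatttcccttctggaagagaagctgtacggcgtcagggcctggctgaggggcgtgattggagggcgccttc
Syn1 held 1 match to TGACGTCA and 2 to GCGGGGGCG, Vamp2 and Syp held 1 match each to GCGGGGGCG, and Slc17a7 and Cplx2 held neither. The promoters of the other 4 of those 8 genes (Syt3, Syt11, Stx1a and Amph) also held neither. The EGR1 letters stood in the promoters of 7 of the 31 genes (Syn1, Syn2, Syp, Syt1, Vamp2, Nsf and Cplx1), 22.6%, and in 2.73% of all 33469 promoters in the table. The response element stood in 3 (Napa, Vamp1 and Syn1), against 1.83% of all promoters, and the left part of the RE1 silencer element, TTCAGCACC, in 1 (Unc13a), against 0.356%. These promoters were also richer in G and C, with a median of 64.7% against 51.7% over all.

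Age was compared in the ad libitum rats, 6 old against 3 middle-aged in each region. The synaptotagmins Syt5 and Syt3 had more RNA in old rats in all 3 regions. The transporter Slc17a7, the GTPase Rab3a, the vesicle proteins Vamp2 and Syp and the endocytosis gene Dnm1 had more in CA1 and CA3. With 1 rat at a time left out, Vamp2, Syp and Dnm1 in CA3 missed the threshold 3, 6 and 7 times. Napa in CA3 missed it 8 times and Sncb in DG 7 times. In CA1 the value table repeated the calls of Syp, Syn1, Syt3, Syt5 and Rab3a. It repeated those of Syt5, Rab3a and Cplx2 in CA3, and of Syt3 and Syt5 in DG. Amph had less in CA1. In CA1, 9 of the 29 genes tested rose and 2 fell, beside 20.5% of all probe sets higher and 7.21% lower. In CA3, 9 rose and 1 fell, beside 15.2% higher and 4.86% lower. In DG, 3 rose and 1 fell, beside 8.20% higher and 2.10% lower. The genes counted as lower were Amph, in CA1, and Syngr1, in each region, which passed the filter only in this table. The median difference over the tested genes was 0.042 in CA1, 0.0056 in CA3 and 0.069 in DG, against 0.065, 0.047 and 0.04 over all probe sets. The split of all probe sets depended on the scaling: with each array centred on its median they were 16.2% higher and 9.40% lower in CA1, 9.96% higher and 5.17% lower in CA3 and 3.95% higher and 1.66% lower in DG, and the genes described here 9 higher and 2 lower, 4 higher and 2 lower and 2 higher and 1 lower.

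Among the calcium sensors, Syt5 showed the clearest change. In CA1 it read 2087, 2155 and 2321 in the 6 old CA1 arrays, against 914, 953 and 919.8 in the 3 middle-aged CA1 arrays. No old array came near the middle-aged ones, and the log2 difference of 1.21 ± 0.054 (SE; adjusted p = 4.02e-07, limma over all probe sets) is a 2.32-fold rise. In CA3 the signals were 1848, 1945 and 2416 in the 6 old CA3 arrays, against 944, 1022 and 1039.8 in the 3 middle-aged CA3 arrays (1.01 ± 0.09, adjusted p = 0.000108). In DG they were 1736, 2080.01 and 2309.7 in the 6 old DG arrays, against 927, 914 and 1193 in the 3 middle-aged DG arrays (1.01 ± 0.12, adjusted p = 0.00124). The groups did not overlap in any region, and the value table gave rises of 1.01 ± 0.082, 0.67 ± 0.09 and 0.88 ± 0.12, each past the threshold of an adjusted p of 0.05. Syt3 followed the same order. Its CA1 signals were 1385, 1538 and 1917 in the 6 old CA1 arrays, against 952, 903 and 944 in the 3 middle-aged CA1 arrays (0.76 ± 0.094, adjusted p = 0.000369). The CA3 signals were 1502, 1685 and 2056 in the 6 old CA3 arrays, against 1066, 1072 and 1157 in the 3 middle-aged CA3 arrays (0.63 ± 0.092, adjusted p = 0.00167). DG gave 1221, 1319 and 1477 in the 6 old DG arrays, against 753, 682 and 1027 in the 3 middle-aged DG arrays (0.70 ± 0.12, adjusted p = 0.00872). All old arrays again lay above all middle-aged ones, although in CA3 the value table's rise of 0.37 ± 0.13 did not pass (adjusted p = 0.0802). Syt1, the main sensor for fast release in the forebrain, differed by -0.0054 ± 0.051, -0.036 ± 0.05 and -0.092 ± 0.051 in CA1, CA3 and DG and did not pass in any of them (lowest adjusted p = 0.292). Syt4, Syt11 and Cadps, which encodes the priming factor CAPS1, did not pass in any region of the dChip signal either.

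Slc17a7, the vesicular glutamate transporter of hippocampal principal cells, rose in both CA fields. In CA1 it read 795, 922 and 964 in the 6 old CA1 arrays, against 455, 657 and 606 in the 3 middle-aged CA1 arrays (0.66 ± 0.11, adjusted p = 0.00193, 1.58-fold). In CA3 the signals were 865, 1196 and 1226 in the 6 old CA3 arrays, against 600.2, 691 and 778 in the 3 middle-aged CA3 arrays (0.69 ± 0.12, adjusted p = 0.00429). The groups did not overlap in either field. In DG the old arrays ran from 555 to 1265 and overlapped the middle-aged range of 569 to 671, and the difference of 0.57 ± 0.23 did not pass (adjusted p = 0.152). The value table did not call this gene in any region, with differences of 0.18 ± 0.11 in CA1, 0.41 ± 0.15 in CA3 and 0.19 ± 0.14 in DG. Slc17a6 (VGLUT2), the transporter of thalamic and other subcortical glutamate neurons, varied widely between rats of a group, from 363 to 2269 in old DG, and did not pass.

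Rab3a, the small GTPase that tethers vesicles at the active zone, read 7017, 7204 and 7327 in the 6 old CA1 arrays, against 5702, 5695 and 5655 in the 3 middle-aged CA1 arrays, a log2 difference of 0.33 ± 0.048 (adjusted p = 0.000844). In CA3 it was 7067, 7466 and 7894 in the 6 old CA3 arrays, against 5857, 6117 and 6003 in the 3 middle-aged CA3 arrays (0.32 ± 0.054, adjusted p = 0.00349). The groups stood apart in both fields, and also in DG, where the difference of 0.26 ± 0.072 did not pass (adjusted p = 0.0519). In the value table the rise was larger, at 0.99 ± 0.08, 0.91 ± 0.11 and 0.71 ± 0.10 in CA1, CA3 and DG, and passed in all 3. Syn1 (synapsin I), which ties vesicles into the reserve pool, differed between the signals in the same way. Its dChip signals in CA1 were 4107, 4345 and 4631 in the 6 old CA1 arrays, against 3499, 3962 and 3471 in the 3 middle-aged CA1 arrays (0.25 ± 0.065, adjusted p = 0.0184). The value table put the CA1 rise at 0.91 ± 0.098 (adjusted p = 0.000252) and the DG rise at 0.87 ± 0.21 (adjusted p = 0.0341), the second against a dChip difference of 0.22 ± 0.096 that did not pass. In CA3 the value table read 561 to 878 in old and 355, 376 and 355 in middle-aged rats, without overlap. The dChip signals of CA3 overlapped, at 4128 to 5016 in old and 4002 to 4263 in middle-aged rats. Syp (synaptophysin), an abundant vesicle membrane protein, rose by 0.30 ± 0.064 in CA1 and 0.19 ± 0.057 in CA3 (adjusted p = 0.00668 and 0.0391). The CA1 signals were 5094, 5474 and 5882 in the 6 old CA1 arrays, against 4488, 4482 and 4330.01 in the 3 middle-aged CA1 arrays, without overlap. In DG its difference of 0.27 ± 0.094 did not pass (adjusted p = 0.106).

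Of the SNARE genes, Vamp2 (synaptobrevin 2) rose in CA1 by 0.27 ± 0.056 (adjusted p = 0.00605) and in CA3 by 0.24 ± 0.057 (adjusted p = 0.0179). Its CA1 signals were 5071, 5244 and 5671 in the 6 old CA1 arrays, against 4546, 4265 and 4283 in the 3 middle-aged CA1 arrays. The old arrays lay above the middle-aged ones in all 3 regions, but the DG difference of 0.29 ± 0.086 did not pass (adjusted p = 0.0617), and the value table called it in no region. Cplx2 (complexin 2), which clamps and supports fusion, rose in CA3 by 0.36 ± 0.10 (adjusted p = 0.0374) and by 0.49 ± 0.11 in the value table (adjusted p = 0.0148). Napa (alpha-SNAP) rose in CA3 by 0.22 ± 0.069 (adjusted p = 0.0497). Snap25, Stx1a (syntaxin 1A), Vamp1, Cplx1 and Nsf passed in no region. The endocytosis genes Dnm1 and Amph moved in opposite directions in CA1. Dnm1 (dynamin 1) rose by 0.26 ± 0.061 (adjusted p = 0.0109; CA3 0.22 ± 0.067), and Amph (amphiphysin), with signals of 166, 171 and 224 in the 6 old CA1 arrays, against 268, 274 and 278 in the 3 middle-aged CA1 arrays, fell by 0.58 ± 0.089 (adjusted p = 0.00131). The value table gave -0.0063 ± 0.15 for Amph in CA1, so this fall rests on the dChip signal. Syngr1, a dim vesicle membrane gene called present on few arrays, passed the filter only in the table that holds the middle-aged arrays, on which it read higher, so its values are a description. It read 41.9, 74.8 and 81.9 in the 6 old CA1 arrays, against 107, 225 and 121 in the 3 middle-aged CA1 arrays, with log2 differences of -0.92 ± 0.22, -0.75 ± 0.1 and -0.72 ± 0.15 in CA1, CA3 and DG. In the value table, where it lay below the filter, the ages overlapped in each region, for example 12.1 to 18.3 in old and 10.5 to 24.2 in middle-aged CA1 and 11.5 to 17.8 in old and 11.3 to 18.6 in middle-aged DG. Sncb (beta-synuclein), a terminal protein related to alpha-synuclein, rose in CA1 by 0.27 ± 0.069 and in DG by 0.24 ± 0.058 (adjusted p = 0.0158 and 0.0294), and did not pass in CA3.

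**Figure D1:**
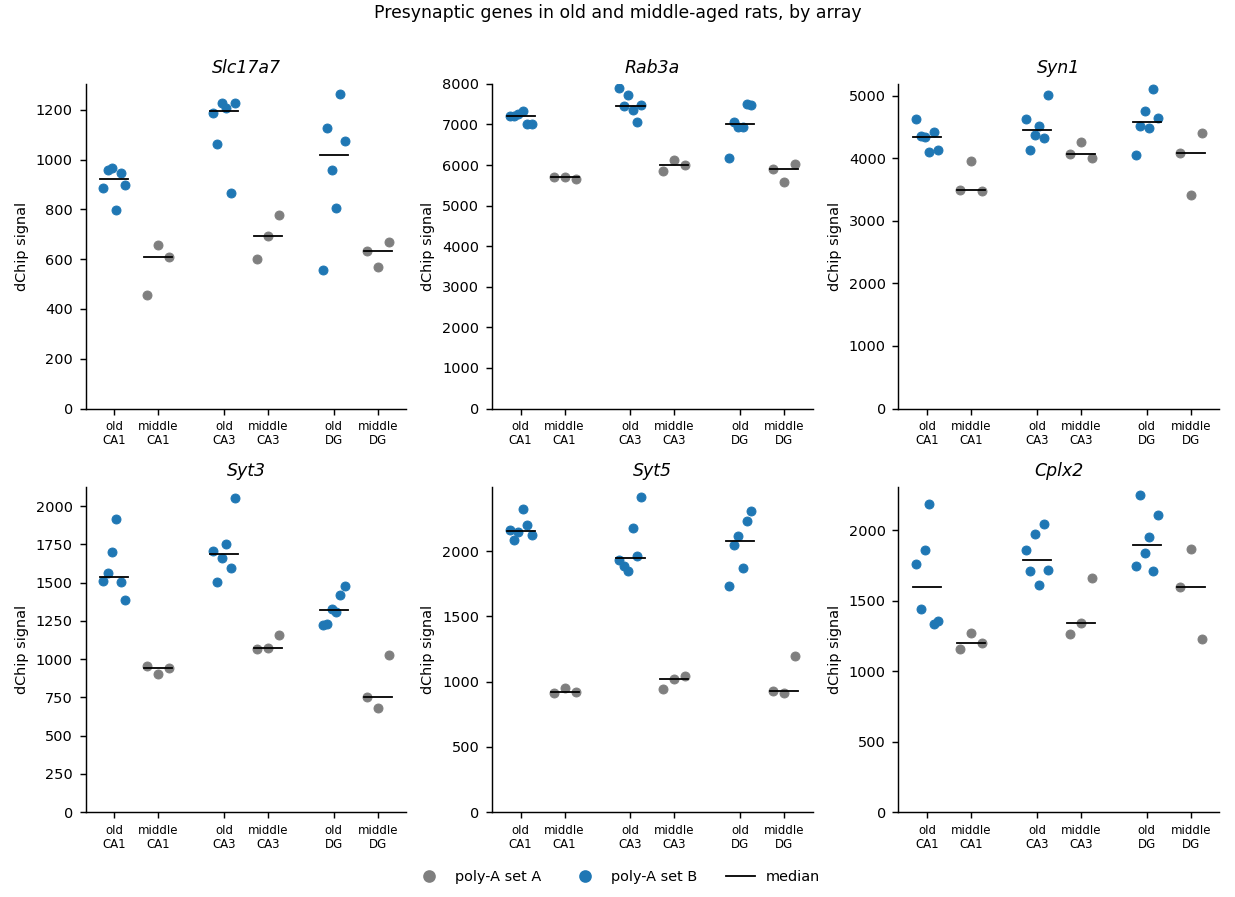
dChip signal (linear axis) of 6 presynaptic genes on every array of the ad libitum rats; in each region the old rats (left) stand beside the middle-aged rats (right), and colour gives the poly-A set. Syt3 and Syt5 separate the ages in all 3 regions, with Syt5 in CA1 at 2087 to 2321 in old and 914 to 953 in middle-aged rats.

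**Figure D2:**
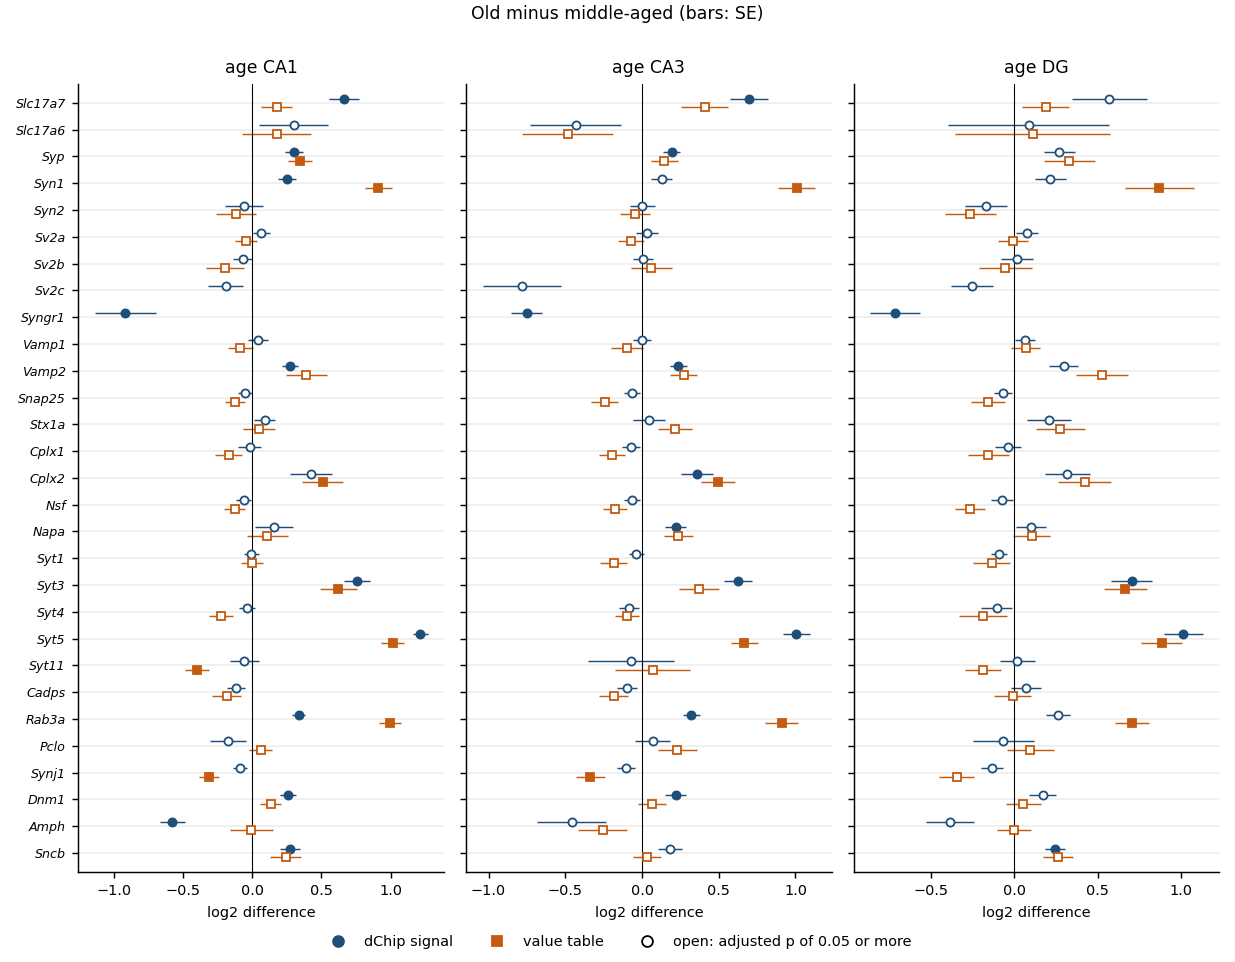
Log2 difference, old minus middle-aged, with its SE for each gene tested, from the dChip signal (circles) and the value table (squares), ordered by role from the transporters at the top to Sncb at the bottom; filled marks passed an adjusted p of 0.05. The circle of Syt5 lies farthest to the right of the circles in each region, and most genes lie near 0.

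No gene passed the test of whether its age effect differed between regions. The interaction of age and region called none of the 29 genes (limma F test), beside 0.0215% of all probe sets, and none in the value table. Markers of other cells moved with age too. Of 11 microglia markers tested, 6 were higher in old CA1, 5 in old CA3 and 5 in old DG. Their summed dChip signal in CA1 was 25031 to 49739 in old rats and 16223 to 20176 in middle-aged rats. Of the 7 general neuron markers, 1 was higher in CA1, 1 in CA3 and 0 in DG, and their sum in CA1 was 43994 to 45326 in old and 43531 to 44443 in middle-aged rats. Of the 9 astrocyte markers, 4 were higher in CA1, 1 in CA3 and 1 in DG. In CA3, 1 of 5 CA1 pyramidal, 1 of 5 dentate granule and 1 of 10 interneuron markers were higher, and 1 of 5 thalamus markers was lower. The median difference of the 2 choroid plexus markers there was -1.77, and 0 passed. In CA1, 1 of 7 CA3 pyramidal, 1 of 10 interneuron and 1 of 6 endothelial markers were higher. In the value table, 1 of the 7 neuron markers was higher and 1 lower in CA1, and likewise in CA3. Of the 9 astrocyte markers, 2 were higher and 1 lower in CA1 there, and 1 of 7 CA3 pyramidal markers was lower. Of 9 oligodendrocyte and myelin markers, 2 were higher in CA1 in that table, and 1 was higher and 2 lower in CA3. The part of these cells in the age differences was not tested. The 3′ to 5′ GAPDH ratios overlapped, at 1.75 to 3.37 in old and 2.09 to 2.69 in middle-aged rats. Without the middle-aged rat numbered 1 the DG count was 1, without the one numbered 3 it was 2, and without old good performer 1 it was 7. In CA3 the count was 5 or 6 without any 1 of the 3 middle-aged rats or without good performer 1 or 3. No share of all probe sets is given here beside these counts.

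Diet was compared in the old rats, 6 restricted against 6 ad libitum in each region, and 3 signals for a group are again its lowest, median and highest. Most of the calls were in the dentate gyrus. There 15 of the 28 presynaptic genes tested rose with restriction and 1 fell, beside 12.4% of all probe sets higher and 19.4% lower. The median difference over the genes was 0.19, against -0.046 over all probe sets. With each array centred on its median, all probe sets were 14.1% higher and 12.1% lower and the genes 15 higher and 1 lower. The rises covered transporter, vesicle, SNARE, calcium sensor and endocytosis genes, and the 1 fall was Cplx2. In the value table, 9 rose and 2 fell, beside 11.6% and 9.01% of all probe sets, and 9 genes (Slc17a7, Vamp2, Syp, Syn1, Syt3, Syt11, Stx1a, Amph and Cplx2) passed in both signals with the same sign. All 6 restricted DG arrays belonged to poly-A set C and all 6 ad libitum ones to set B, so diet and set cannot be told apart in this region.

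Slc17a7 had the largest rise among these genes in the restricted DG. It read 1835, 2069 and 2487 in the 6 restricted DG arrays, against 615, 1110.2 and 1367 in the 6 ad libitum DG arrays. The lowest restricted array lay above the highest ad libitum one, and the log2 difference was 1.02 ± 0.16 (adjusted p = 0.00141), 2.02-fold, with 0.75 ± 0.12 in the value table (adjusted p = 0.00135). Slc17a6 did not pass (-0.58 ± 0.37, adjusted p = 0.252). Among the vesicle membrane genes, Syp read 6655, 7068 and 7489.7 in the 6 restricted DG arrays, against 5181, 5536 and 6106 in the 6 ad libitum DG arrays and rose by 0.32 ± 0.053 (adjusted p = 0.00151). Syn1 read 4898, 5175 and 5321 in the 6 restricted DG arrays, against 3753, 4334 and 4905 in the 6 ad libitum DG arrays. That rise was 0.25 ± 0.059 in the dChip signal (adjusted p = 0.00821) and 0.78 ± 0.11 in the value table (adjusted p = 0.0007), where the groups did not overlap. Syn2 (synapsin II) rose by 0.29 ± 0.085 (adjusted p = 0.0237), whereas Sv2a, Sv2b and Sv2c, the vesicle proteins of which SV2A binds the drug levetiracetam, did not pass.

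Vamp2 read 6302, 6624 and 6815 in the 6 restricted DG arrays, against 4587, 5059 and 5628 in the 6 ad libitum DG arrays. Every restricted array exceeded every ad libitum one (0.38 ± 0.051, adjusted p = 0.000576). Stx1a, the plasma membrane partner of Vamp2, read 2437, 2742 and 2868 in the 6 restricted DG arrays, against 1724, 2064 and 2381 in the 6 ad libitum DG arrays (0.39 ± 0.084, adjusted p = 0.00547), again without overlap. Cplx1 and Nsf rose by 0.20 ± 0.052 and 0.17 ± 0.046. Snap25, the other plasma membrane SNARE, did not pass in the dChip signal (0.026 ± 0.036) and was lower in the value table (-0.29 ± 0.09, adjusted p = 0.0335). Cplx2 had less RNA in the restricted DG. It read 669.8, 1105 and 2126 in the 6 restricted DG arrays, against 1867, 2085 and 2434 in the 6 ad libitum DG arrays, and the difference was -0.91 ± 0.24 (adjusted p = 0.0147) and -0.93 ± 0.21 in the value table (adjusted p = 0.0079). The restricted arrays read 669.8, 720.04 and 1127 in poor performers and 2126, 1083 and 1529 in good performers. The array of good performer 1 lay within the ad libitum range and the other 5 below all 6 ad libitum arrays.

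Syt3 rose with the smallest adjusted p among these genes: 1898, 2029 and 2132 in the 6 restricted DG arrays, against 1362, 1465 and 1621 in the 6 ad libitum DG arrays (0.44 ± 0.053, adjusted p = 0.000301). Syt5 and Syt11 rose by 0.25 ± 0.067 and 0.24 ± 0.081, and Cadps by 0.18 ± 0.058. With 1 rat at a time left out, Syt11 missed the threshold 9 times and Cadps 8 times. Syt1 and Syt4 did not pass. Syt3 and Syt5 had also risen with age; that comparison shares the old ad libitum rats with this one. In the endocytosis group, Amph read 338, 435 and 489 in the 6 restricted DG arrays, against 175, 214 and 299 in the 6 ad libitum DG arrays and rose 1.86-fold (0.89 ± 0.12, adjusted p = 0.000652). The groups did not overlap in either signal. Dnm1 rose by 0.24 ± 0.051 in the dChip signal (adjusted p = 0.00543) but differed by -0.062 ± 0.095 in the value table. Sncb rose by 0.23 ± 0.041 (adjusted p = 0.00198), and Synj1, Pclo (piccolo) and Rab3a did not pass. Rims1, the active zone scaffold, passed the filter only in the value table with the restricted arrays included. It read higher on those of DG, at 27.7 to 37.7 against 12.4 to 24.7 in ad libitum DG. Its difference of 0.47 ± 0.094, counted among the rises in the value table, is therefore a description.

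Beside these rises, 4 of the 7 general neuron markers were higher in the restricted DG and 0 lower, with summed dChip signals of 48678 to 49754 in restricted and 40898 to 48429 in ad libitum rats. Of 11 microglia markers, 3 were lower (18529 to 25480.5 in restricted and 21724 to 35664 in ad libitum rats). Of the CA3 pyramidal markers, 2 of 7 were higher, and 1 of 9 astrocyte, 1 of 9 oligodendrocyte and 1 of 6 endothelial markers were lower. Of the 7 neuron markers, 1 was higher in the value table. None of the dentate granule, CA1 pyramidal, interneuron or thalamus markers passed. The 3′ to 5′ GAPDH ratios were 1.56 to 2.06 in restricted and 1.95 to 2.65 in ad libitum DG. Their part in the diet differences was not tested. Split by performance, each comparison set 3 restricted against 3 ad libitum rats. Cplx2, Slc17a7, Amph and Syt3 passed among poor performers, and Syp, Amph, Vamp2 and Syt3 among good performers. The share of all probe sets called in these fits is not given here, so the calls are not read against it. Cplx2 differed by -1.35 ± 0.21 in poor and -0.47 ± 0.25 in good performers, a gap that was not tested.

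**Figure D3:**
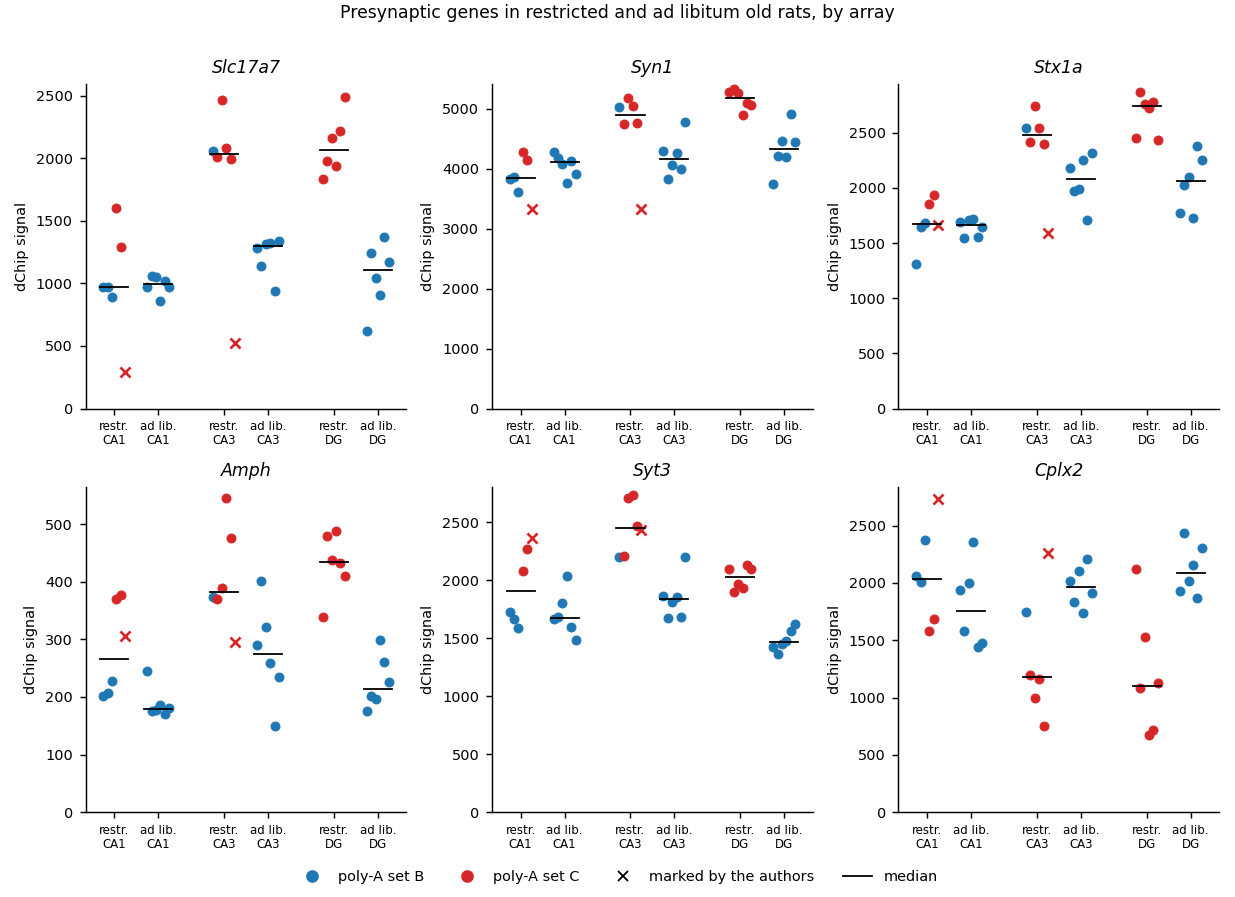
dChip signal (linear axis) of 6 presynaptic genes on every array of the old rats; in each region the restricted rats (left) stand beside the ad libitum rats (right), colour gives the poly-A set and crosses are the 2 arrays the authors marked. Slc17a7 stands higher in restricted DG (1835 to 2487) than in ad libitum DG (615 to 1367), and Cplx2 lower on most restricted CA3 and DG arrays.

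In CA3, 4 genes rose with restriction (Vamp2, Syt3, Sncb and Syp) and 0 fell, beside 2.94% of all probe sets higher and 5.44% lower. Vamp2 read 6034, 6248 and 6759 in the 6 restricted CA3 arrays, against 4736, 5079 and 5392 in the 6 ad libitum CA3 arrays (0.31 ± 0.054, adjusted p = 0.00936). Syt3 read 2202, 2447 and 2734 in the 6 restricted CA3 arrays, against 1672, 1835 and 2198 in the 6 ad libitum CA3 arrays (0.41 ± 0.082, adjusted p = 0.0142). In both, every restricted array lay above every ad libitum one, and both passed in the value table. The value table called 2 as higher and 0 as lower, beside 3.80% and 2.55% of all probe sets. Sncb and Syp rose by 0.28 ± 0.056 and 0.28 ± 0.062 (adjusted p = 0.0142 and 0.0189). With each array centred on its median, all probe sets were 4.03% higher and 2.23% lower and the genes 4 higher and 0 lower. Without the marked CA3 array, 13 genes rose and 1 fell, beside 10.0% of all probe sets higher and 16.1% lower; in the value table without it 10 rose and 2 fell, beside 10.8% and 9.14%.

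In the restricted CA3, Slc17a7 had signals of 2078, 1990.1 and 523 in poor performers, the last of these being the marked array, and 2057, 2011 and 2467 in good performers, against 939.7, 1300.3 and 1339 in ad libitum rats. All restricted arrays but the marked one lay above the ad libitum range. With all arrays the difference was 0.46 ± 0.31 (adjusted p = 0.377), and without the marked array it was 0.79 ± 0.097 (adjusted p = 0.0006). Cplx2 read 1158, 755 and 2264 in restricted poor performers and 1743, 1198 and 995 in restricted good performers, against 1739.8, 1964 and 2205 in ad libitum rats. The marked array was the highest restricted one, just above the ad libitum range. Without the marked array the difference was -0.79 ± 0.17 (adjusted p = 0.00673), and with it -0.62 ± 0.21 (adjusted p = 0.0856). Syn1, Syn2, Stx1a, Cplx1, Nsf, Dnm1, Amph and Cadps also passed as higher only without the marked array, with differences from 0.16 for Nsf to 0.65 for Amph. One restricted CA3 array, good performer 1, shared poly-A set B with the ad libitum arrays. It read 2057 for Slc17a7, 5035 for Syn1, 6119.6 for Vamp2 and 7175 for Syp. Each of these exceeded all 6 ad libitum arrays (highest 1339, 4776, 5392 and 6371). Its Cplx2 signal of 1743, in contrast, lay within the ad libitum range, next to its lowest array (1739.8). Within set B, with this 1 restricted array assumed to vary like the others, no gene passed; the difference was 0.75 ± 0.19 for Slc17a7 (adjusted p = 0.19) and -0.17 ± 0.14 for Cplx2 (adjusted p = 0.594).

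In CA1 no presynaptic gene passed in either signal (limma), beside 0.0215% of all probe sets in the dChip signal and 0.215% in the value table. Without the marked CA1 array none passed in the dChip signal, and Syt11 rose in the value table by 0.40 ± 0.089 (adjusted p = 0.0401), beside 1.39% of all probe sets in the dChip signal and 2.30% in the value table. The restricted CA1 arrays were split between the poly-A sets, and some of the genes differed along that split. Slc17a7 read 1602, 1293 and 294 in the 3 restricted poor performers (set C, the last the marked array), 968, 969 and 888 in the 3 restricted good performers (set B) and 863, 996 and 1059.6 in the ad libitum rats (set B). The set B restricted arrays lay within the ad libitum range, and the 2 unmarked set C arrays above it. Amph read 369.6, 376 and 305 in poor and 201, 206 and 227 in good restricted rats, against 171, 179 and 246 in ad libitum rats. All 3 poor performers lay above the ad libitum range. Within set B, 3 restricted good performers against 6 ad libitum rats, the difference was -0.068 ± 0.072 for Slc17a7, 0.15 ± 0.10 for Amph and 0.10 ± 0.057 for Vamp2, and none of the genes passed. Performance and poly-A set cannot be told apart in restricted CA1. With 12 arrays, the 95% interval of the diet difference in CA1 was -0.74 to 0.46 for Slc17a7, -0.043 to 0.40 for Syt3 and 0.026 to 0.28 for Vamp2.

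**Figure D4:**
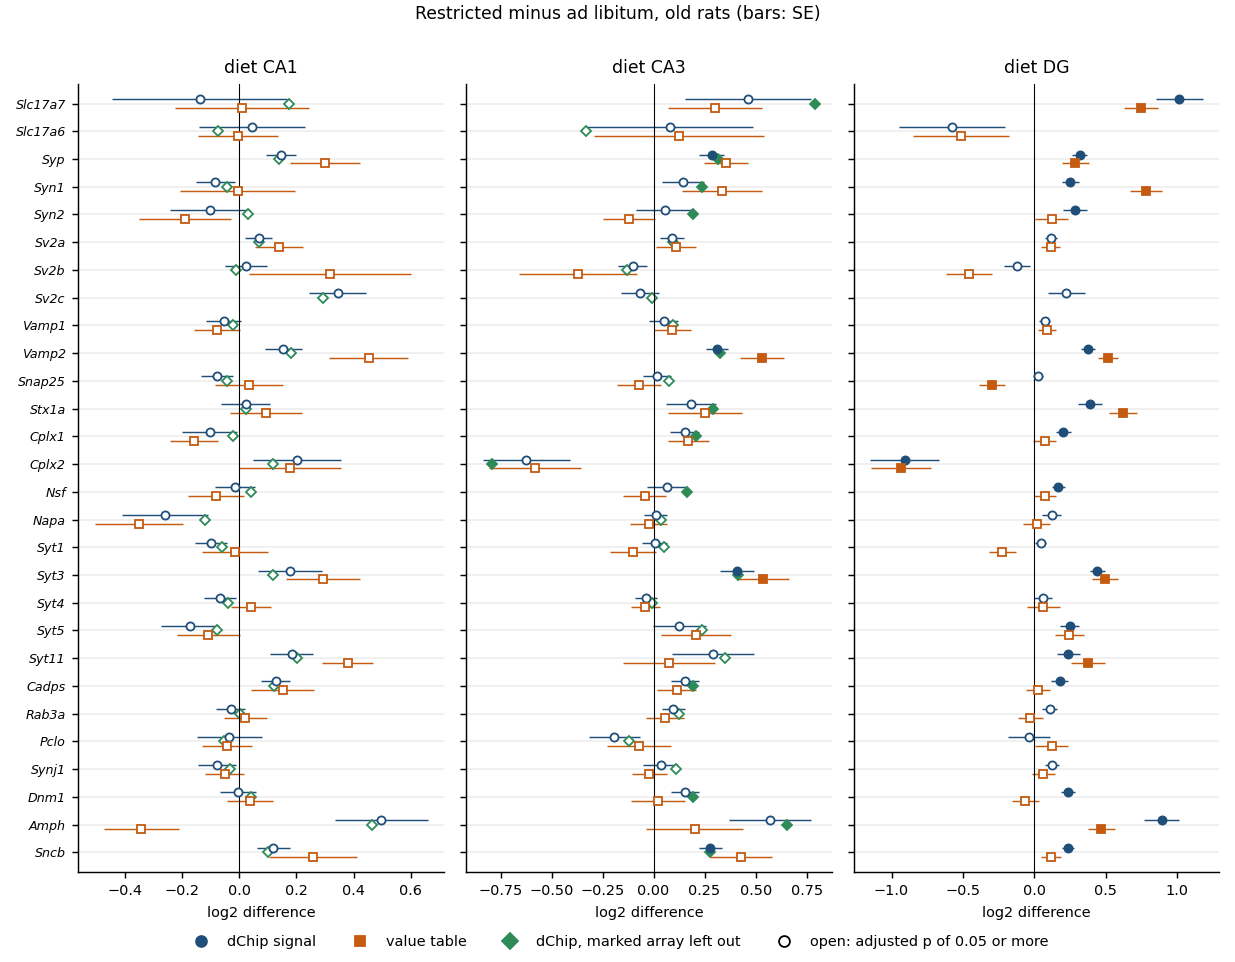
Log2 difference, restricted minus ad libitum old rats, with its SE for each gene tested, from the dChip signal (circles), the value table (squares) and, in CA1 and CA3, the dChip signal without the array the authors marked (diamonds, no SE drawn); filled marks passed an adjusted p of 0.05, and the horizontal scales differ between panels. Filled marks are absent from CA1 with all arrays and most numerous in DG.

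Whether the diet effect differed between regions was tested as an interaction. No gene passed in either signal, beside 0.0268% of all probe sets in the dChip signal and 0% in the value table. Cplx2 came closest (DG minus CA1 effect -1.11 ± 0.29, adjusted p = 0.0821), followed by Cplx1 (0.31 ± 0.099, adjusted p = 0.128) and Syn1 (0.34 ± 0.11, adjusted p = 0.138). Without the animal of the marked arrays, Slc17a7 (adjusted p = 0.0481) and Syn1 (adjusted p = 0.0438) passed. The share of all probe sets called in that fit is not given here, so these calls are not read as a result about the genes.

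Poor and good performers were compared in the old rats with diet in the model, 6 against 6 in each region. No presynaptic gene passed in any region, and no probe set at all did (0% of all in limma's fit of either signal, with 3032, 720 and 2028 at an unadjusted p under 0.05 in CA1, CA3 and DG). At an unadjusted p under 0.05 there were 3 of the 28 genes in CA1, 1 in CA3 and 2 in DG. The smallest adjusted p was 0.256, for the dim gene Sv2c in CA1 (0.23 ± 0.079). The poor minus good difference of Slc17a7 was -0.13 ± 0.32 (CA1), -0.40 ± 0.30 (CA3) and 0.21 ± 0.16 (DG), and Cplx2 differed in DG by -0.45 ± 0.21 (adjusted p = 0.486).

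Regions were compared within the 9 ad libitum rats, each rat giving 1 array to each region. For 1 middle-aged CA3 array (replicate 2) the description repeats the animal code of replicate 1. It was taken to come from the rat of replicate 2 in CA1 and DG, so the pairing of that rat is an assumption. Vamp1 and Cadps had more RNA in CA3 than in either other region, Stx1a and Syn2 had less in CA1 than in either, and Syt3 and Sv2b less in DG than in either. Between DG and CA1, Stx1a missed the threshold 5 times and Syt3 3 times with 1 rat at a time left out. CA3 exceeded CA1 in 6 genes and fell below it in 1 of 29, beside 8.79% and 13.5% of all probe sets. DG exceeded CA1 in 3 and fell below it in 2, beside 8.13% and 8.40%. DG exceeded CA3 in 1 and fell below it in 6, beside 36% in either direction. The median differences were 0.10, 0.031 and -0.066 over the genes and -0.021, -0.0021 and 0.0061 over all probe sets. With arrays centred on their median the genes were 5 higher and 1 lower between CA3 and CA1, 1 higher and 2 lower between DG and CA1 and 2 higher and 5 lower between DG and CA3. The shares of all probe sets with centred arrays are not given here. After quantile normalisation all probe sets were 10.6% higher and 10.9% lower between CA3 and CA1 and the genes 11 higher and 1 lower. The 3 comparisons share arrays and are not independent of each other. Per the file headers, the dChip arrays of the ad libitum rats were normalised separately by region, so the differences below set separately normalised arrays against each other. Of the calls, 6 between CA3 and CA1 (Slc17a6, Vamp1, Syn2, Stx1a, Amph and Cadps), 2 between DG and CA1 (Syn2 and Sv2b) and 7 between DG and CA3 (Vamp1, Syt3, Sv2b, Cplx1, Synj1, Sncb and Cadps) were also made, with the same sign, in the value table, a single table for all 45 arrays, beside 14.5%, 13.0% and 28.2% of all probe sets called there.

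Vamp1 (synaptobrevin 1), a vesicle SNARE more typical of brainstem and spinal cord, was highest in CA3. It read 6163, 6783 and 7017 in CA3, against 5166, 5586 and 6209 in CA1, higher in CA3 in 9 of 9 rats (0.25 ± 0.04, adjusted p = 0.000385). DG read 5275, 5797 and 5992 and lay below CA3 without overlap (-0.23 ± 0.04, adjusted p = 0.000282). Vamp2 passed in none of the 3 comparisons. Cadps read 5430.2, 6149.9 and 6445 in CA3, against 4691, 5040.5 and 5776 in CA1 (0.24 ± 0.052, adjusted p = 0.00298, higher in CA3 in 9 of 9 rats). In DG it was lower than in CA3 by a log2 difference of -0.29 ± 0.052 (adjusted p = 0.000296). CA3 thus had the most Cadps RNA, and CA1 and DG did not pass against each other. Stx1a and Syn2 were lowest in CA1. Stx1a read 1593, 1913 and 2220.1 in CA3, against 1313, 1526 and 1677 in CA1 (0.35 ± 0.081, adjusted p = 0.00545), and DG exceeded CA1 by 0.25 ± 0.081 (adjusted p = 0.0416). Syn2 read 4238, 4762 and 5193 in CA3, against 2981, 3859.7 and 4743 in CA1 (0.31 ± 0.082, adjusted p = 0.0127), and DG exceeded CA1 by 0.33 ± 0.082 (adjusted p = 0.00792). Neither passed between DG and CA3. Amph and Pclo were higher in CA3 than in CA1 by 0.42 ± 0.12 and 0.28 ± 0.095 (adjusted p = 0.0187 and 0.0428), and Napa in DG over CA1 by 0.20 ± 0.063 (adjusted p = 0.033). With 1 rat at a time left out, Amph, Pclo and Napa missed the threshold 2, 7 and 6 times. Pclo was called present on 12 of the 27 ad libitum arrays.

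Syt3 and Sv2b were lowest in DG. Syt3 read 682, 1230.2 and 1477 in DG, against 1066, 1596 and 2056 in CA3, lower in DG in 9 of 9 rats (-0.38 ± 0.066, adjusted p = 0.000205), and against CA1 the difference was -0.24 ± 0.066 (adjusted p = 0.0169). Sv2b read 4318, 4641 and 5411 in DG, against 4994, 5550.02 and 6038 in CA1, lower in DG in 9 of 9 rats (-0.21 ± 0.038, adjusted p = 0.000865), and against CA3 -0.18 ± 0.038 (adjusted p = 0.00139). Cplx1 and Synj1 (synaptojanin 1) were lower in DG than in CA3 by log2 differences of -0.18 ± 0.048 and -0.12 ± 0.035. Sncb was the 1 gene that was higher in DG than in CA3 (0.13 ± 0.039, adjusted p = 0.011). Slc17a6 was lower in CA3 than in CA1, at 429, 594 and 1283 in CA3, against 588, 1152 and 1607 in CA1 (-0.76 ± 0.23, adjusted p = 0.0245, lower in CA3 in 8 of 9 rats). The spread between rats was wide in every region. Slc17a7 exceeded CA1 in CA3 by 0.29 ± 0.11 without passing (adjusted p = 0.0658), and by 0.38 ± 0.099 in the value table, where it passed (adjusted p = 0.0141).

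Within 1 poly-A set the numbers of rats were smaller and fewer genes passed: between CA3 and CA1, 2 among the 6 old rats (set B) and 0 among the 3 middle-aged rats (set A). Vamp1 differed by 0.24 ± 0.052 in old and 0.28 ± 0.078 in middle-aged rats, Cadps by 0.25 ± 0.064 and 0.23 ± 0.077, Stx1a by 0.33 ± 0.099 and 0.37 ± 0.13. Between DG and CA3 the counts were 4 and 2, with Syt3 at -0.36 ± 0.082 and -0.43 ± 0.11. Between DG and CA1 they were 1 and 0. The shares of all probe sets in these smaller fits are not given here, so the counts are not read against them. Among the 5 restricted rats without the animal of the marked arrays, 17 genes were higher and 2 lower in CA3 than in CA1, and 15 higher and 3 lower in DG than in CA1, beside 14.3%, 26.9%, 14.6% and 17.7% of all probe sets. In these rats region and poly-A set partly coincide, since the good performers' CA1 arrays are in set B and all DG arrays in set C. The Syt3 difference between DG and CA1 was 0.11 ± 0.087 in them (adjusted p = 0.334), opposite in sign to the -0.24 ± 0.066 of the ad libitum rats. Other cells moved with region as well: 8 of 10 interneuron markers were lower in DG than in CA1, with summed dChip signals of 17475 to 23821 in DG and 22966 to 33084 in CA1. Their part was not tested.

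**Figure D5:**
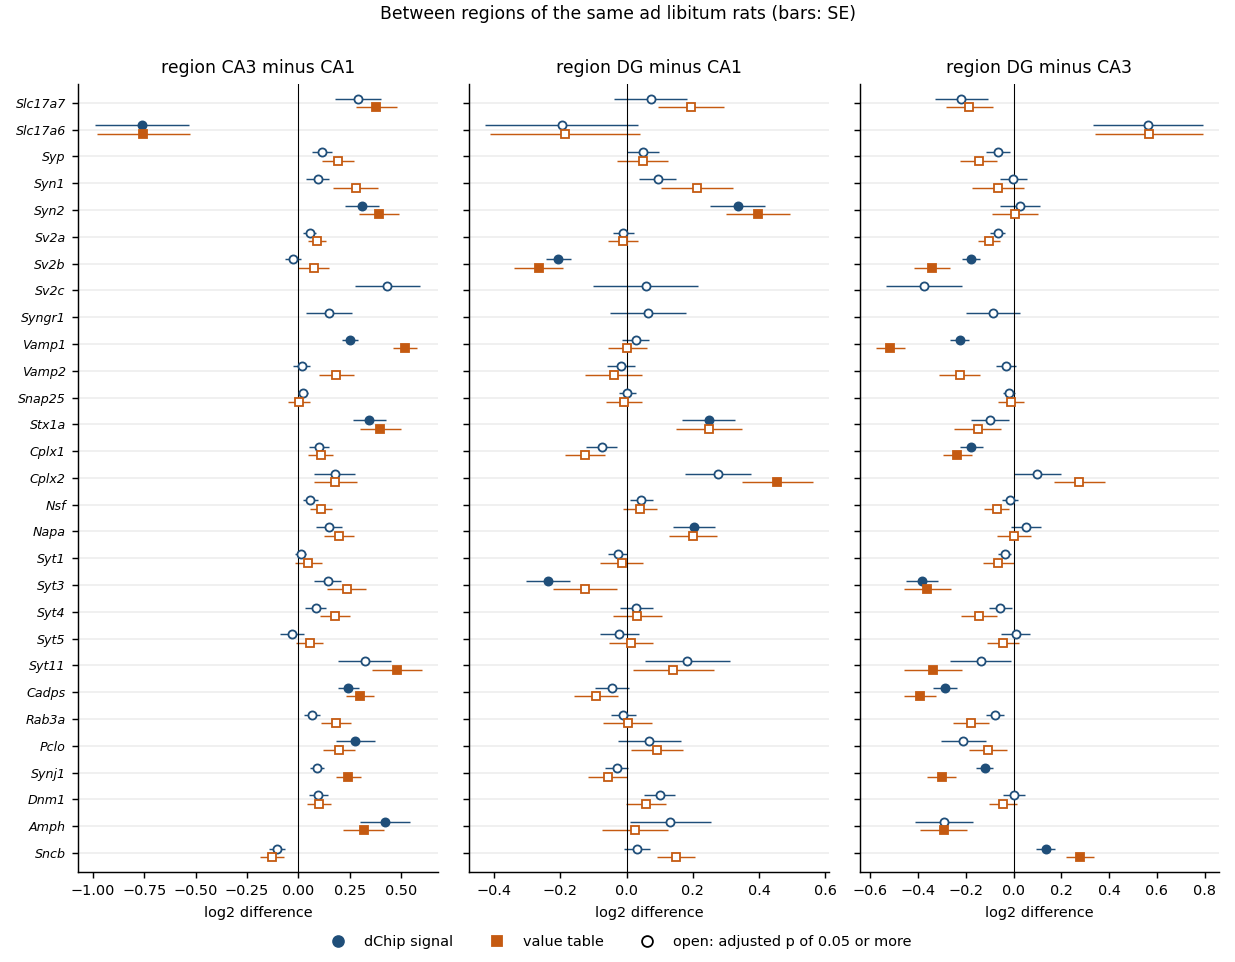
Log2 difference between regions of the same 9 ad libitum rats, with its SE, for each gene tested, from the dChip signal (circles) and the value table (squares); filled marks passed an adjusted p of 0.05, and positive values mean more RNA in the region named first. Vamp1 and Cadps lie right of 0 for CA3 minus CA1 and left of 0 for DG minus CA3.

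Restricted old rats and middle-aged rats share no dChip table, so they were compared in the value table, 6 against 3 in each region; the 2 groups differ in age, diet and poly-A set at once. In CA1 4 genes were higher and 0 lower, beside 3.64% and 0.446% of all probe sets; in CA3 5 and 0, beside 6.67% and 2.31%; in DG 11 and 3, beside 18.0% and 11.9%. Vamp2, Syt3, Syt5 and Rab3a were higher in all 3 regions. With arrays centred on their median, the genes were 3 higher and 0 lower in CA1, 4 higher and 1 lower in CA3 and 9 higher and 4 lower in DG, and after quantile normalisation 13 higher and 0 lower in DG; centring moved the median difference over all probe sets in CA1 to -0.13, against 0.029, and in DG to -0.095, against 0.024. In DG, Syn1 read 1057, 1203 and 1296 in the 6 restricted arrays, against 415, 255 and 472 in the 3 middle-aged arrays, a log2 difference of 1.65 ± 0.15 (adjusted p = 2.96e-05). Slc17a7 read 240, 295 and 378 in the 6 restricted arrays, against 145, 135 and 161 in the 3 middle-aged arrays (0.94 ± 0.12, adjusted p = 0.000218). Vamp2 read 1499, 1683 and 1723 in the 6 restricted arrays, against 955, 568 and 932 in the 3 middle-aged arrays (1.04 ± 0.14, adjusted p = 0.000366). No restricted array overlapped the middle-aged ones for these genes. Syt3 and Syt5 differed by 1.16 ± 0.10 and 1.13 ± 0.093, Stx1a by 0.90 ± 0.12, and Rab3a by 0.68 ± 0.10, all past the threshold. Rims1, counted among the 11, passed the filter only with the restricted arrays included. It read higher on those of DG, so its difference of 0.66 ± 0.093 is a description. Syt1, Snap25 and Synj1 were lower in DG, with log2 differences of -0.36 ± 0.10, -0.45 ± 0.11 and -0.28 ± 0.09; after quantile normalisation none of the 3 passed and the Syt1 difference was 0.0023. Rab3a differed by 1.01 ± 0.10 in CA1 and 0.96 ± 0.14 in CA3 (adjusted p = 0.00158 and 0.0021). In the same comparison in DG, 3 of 11 microglia and 3 of 7 CA3 pyramidal markers were higher, and 4 of 9 oligodendrocyte and 3 of 9 astrocyte markers were lower; their part was not tested. Without the marked arrays the counts were 8 in CA1 and 14 in CA3. Without the middle-aged rat numbered 2 they were 2 and 3, and without the one numbered 3 the CA1 count was 2. The shares of all probe sets are not given here for these fits or for the other scalings.

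Beyond the 34 genes, 99 of 137 further presynaptic genes were tested, chosen by role with earlier results of these data known; those named are among the ones with the smallest adjusted p. With age, 20 of them rose and 4 fell in CA1 (all probe sets 20.5% and 7.21%), 19 rose and 6 fell in CA3 (15.2% and 4.86%), and 9 rose and 1 fell in DG (8.20% and 2.10%). In the value table the counts were 18 higher and 8 lower in CA1, 16 higher and 11 lower in CA3 and 9 higher and 4 lower in DG. The shares above are those of the dChip signal and do not apply to these counts, which have no share beside them here. Of 25 endocytosis genes, 9 rose and 3 fell in CA1. Ap2b1, an adaptor subunit that links clathrin to cargo, rose by 0.46 ± 0.061 in CA1 and 0.43 ± 0.06 in DG, and Atp6v0a1, a subunit of the proton pump that acidifies vesicles, by 0.66 ± 0.08 in CA1 and 0.56 ± 0.069 in CA3. Cacnb1 and Cacnb3, auxiliary subunits of voltage-gated calcium channels, rose in CA3 by 0.68 ± 0.082 and 0.54 ± 0.063. Snap91 (AP180), a clathrin assembly protein, fell in all 3 regions, by log2 differences of -0.24 ± 0.056, -0.25 ± 0.062 and -0.24 ± 0.062. Sh3gl2 (endophilin A1) fell in the dChip signal of CA1 (-1.22 ± 0.14) but not in the value table (0.20). With restriction, 0 of 99 rose and 0 fell in CA1, 4 rose and 3 fell in CA3 (all probe sets 2.94% and 5.44%), and 20 rose and 10 fell in DG (12.4% and 19.4%). Atp6v0a1 rose by 0.55 ± 0.085 in DG and 0.43 ± 0.059 in CA3, and Sh3gl2 by 1.29 ± 0.23 in DG. Snapin, a SNAP25-binding protein, fell in both, by log2 differences of -0.33 ± 0.077 in DG and -0.32 ± 0.066 in CA3. Between regions, differences were found for Synpr (synaptoporin), a vesicle protein known from mossy fibre terminals, higher in DG than in CA3 by 0.76 ± 0.075, and for Unc13c (Munc13-3), higher in DG than in CA3 by 1.79 ± 0.23. Slc30a3 (ZnT3), which loads zinc into mossy fibre vesicles, was higher in DG by 0.53 ± 0.068, and Cadps2 was lower in DG than in CA1 by a log2 difference of -1.28 ± 0.13.

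The authors' deposited tables of changed probe sets list, among 2406 entries, 11 of the genes for restriction in DG, all as higher, with a signed fold of 2.01 for Slc17a7, 1.80 for Amph and 1.74 for Rims1. The authors' deposited table for restriction in CA3 lists 7 among 1596, all higher, among them Slc17a7 (1.75) and Rims1 (1.86), and that for CA1 lists 0 among 350. For age, the authors' deposited tables list 6 genes in CA1, 5 in CA3 and 2 in DG, among 2161, 1482 and 920 entries, with Syt5 in each (2.34, 2.03 and 2.04). Genes with more than 1 probe set gave a second reading. For diet, all 16 further probe sets that were tested in DG had the sign of the brightest one, against 10 of 16 in CA1 and 11 of 16 in CA3. Between restricted and middle-aged rats, 9 of 15 had it in CA1, 9 in CA3 and 8 in DG. For age the same held for 10 of 15 in CA1, 9 in CA3 and 11 in DG, and for region for 14 of 15 in each comparison. No further probe set was called in the direction opposite to a brightest one that was itself called. Syn2, whose brightest probe set did not pass for age, had 2 further ones called in opposite directions, with log2 differences of 0.31 and -1.18 in CA1 and 0.47 and -0.82 in CA3.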

How the data were processed

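RNA of 45 hand-dissected samples was read on Affymetrix RAE 230 2.0 arrays. The authors deposited each array's expression as dChip intensity in tables per comparison and, in the series' value table, as a second intensity (its software: not given in the sources used here); per the file headers, the arrays of the age comparison were normalised by region and those of the diet comparison together. The authors' lists of changes hold signed fold values and p-values per the file headers, and are only quoted. Intensities were taken as log2(signal + 16), and tests ran on the 18625 probe sets whose mean passed the 40th percentile, with limma 3.58.1 (lmFit, eBayes) in R 4.3.3, with Benjamini-Hochberg adjustment over all of them and a threshold of 0.05. Age, diet and performance were fitted within a region, regions with the animal as a block, and interactions with the animal as a random block. The fits were tested on simulated data. Each gene was read by its brightest probe set by mean value-table signal. The genes, lists and tests were chosen with earlier results of these data known, so none of them is independent of those results. Up to 8 genes of smallest adjusted p per comparison were given in full, and up to 3 further presynaptic genes in each direction were named. Samples were grouped by their labels. The description of 1 restricted DG array of a good performer (replicate 2) names the other performance class, and its title was followed. The description of the middle-aged CA3 array of replicate 2 repeats the animal code of replicate 1. That array was taken to come from the rat of replicate 2 in CA1 and DG, which the labels do not state. Rats of the same title number do not pair: their deviations correlated at -0.0089 on average. The labels do not say how many litters the rats came from. The number of arrays limits the precision. The alternatives were the other signal, pseudocounts of 1 and 64, no filter, 2 other scalings, the title number as a block, and leaving out each animal.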

Additional observations from a re-analysis of the deposited data

Results flagged for a closer look

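Each gene's dChip signal in each region was checked for a lone high or low array among the 6 restricted and among the 6 ad libitum old rats, by Dixon's gap test at the 95% level. Of 168 such groups, 25 held one. Chance alone gives about 1 in 20 groups, and 16 of the 25 were on the 2 arrays the authors marked. On the marked CA3 array, Slc17a7 read 523 (others 1990.1 to 2467), Slc17a6 read 2863 (others 399 to 608), Syn1 read 3329 (others 4751 to 5171), Syn2 read 3036 (others 5122 to 5832), Syt1 read 9516 (others 11090.4 to 11928), Snap25 read 9522 (others 11798 to 12842), Stx1a read 1595 (others 2400.1 to 2742), Cplx1 read 7069 (others 8567 to 9322), Nsf read 5801 (others 8294 to 8896) and Synj1 read 5789.8 (others 7731 to 8184); all but Slc17a6 were low. The marked CA1 array stood apart as low among the restricted CA1 arrays for 6 genes by this test: Slc17a7 read 294 (others 888 to 1602), Syn2 read 2267 (others 3474 to 4151), Rab3a read 6014 (others 6725 to 6968), Cplx1 read 5172 (others 6849.5 to 7818), Nsf read 6108 (others 7354 to 7869) and Napa read 2795 (others 4739 to 5423). The thalamus markers of these arrays are given above, and their part was not tested. Among ad libitum rats, CA3 of good performer 2 was low for 3 genes: Syt1 read 10419.5 (others 11154 to 11385), Cplx1 read 6934 (others 7661 to 8118) and Napa read 5481 (others 6095 to 6269). CA1 of poor performer 1 was low for 2: Snap25 read 11169 (others 11521 to 11699) and Napa read 4195 (others 5369.97 to 6102). CA1 of good performer 1 was high for 1 gene: Amph read 246 (others 171 to 186). The CA3 titles of poor performers run from 2 to 4, so their numbers are not those of the CA1 and DG titles. The CA3 array titled poor performer 4 was high where Syp read 6371 (others 5336 to 5604), the CA3 array titled poor performer 3 was low where Syt11 read 61.2 (others 128 to 183), and DG of good performer 1 was low where Sncb read 5393 (others 5859 to 6057).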

How the results depend on the processing

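Of the calls that the value table could repeat, 36 passed there, 24 did not and 1 (Dnm1 for diet in DG, -0.062) changed sign. Pseudocounts of 1 and 64 left 85 and 87 of 87 calls in place. The number of genes called for age in CA3 was 6 with arrays centred on their median, 6 without the filter and 5 in the value table. For diet in CA1 it was 2 among poor performers and 1 in the value table without the marked array. For diet in CA3 it was 0 among poor and 10 among good performers, 2 in the value table, 12 there without the marked array, and 0 within poly-A set B in the dChip signal and 0 in the value table. For diet in DG it was 4 among poor and 4 among good performers. For CA3 against CA1 it was 2 in old ad libitum rats (2 in the table of the old rats), 0 in middle-aged rats, 12 after quantile normalisation, 16 in restricted rats and 19 without the animal of the marked arrays; the value table gave 3 in old, 1 in middle-aged and 19 in those restricted rats. For DG against CA1 it was 3 with arrays centred, 3 without the filter, 3 without the animal as a block, 1 in old (0 in the table of the old rats), 0 in middle-aged, 15 in restricted rats and 18 without the marked animal; the value table gave 3 over all, 0 in old, 0 in middle-aged and 11 in those restricted rats. For DG against CA3 it was 4 in old, 2 in middle-aged, 1 in restricted rats and 3 without the marked animal, and 4 in middle-aged rats in the value table. Fewer samples entered each of these subsets, and otherwise the cause was not tested. Where no share of all probe sets stands beside a count, the count is not read as a result about these genes. Syt3 between DG and CA1 changed sign in restricted rats (0.066; 0.11 without the marked animal and 0.14 in the value table), and Syt1 between restricted and middle-aged DG after quantile normalisation (0.0023). The title number as a replicate block gave 10 calls in restricted against middle-aged CA3, against 5 without it, and moved no other count by over 1.5 times; the numbers do not pair rats between groups. Leaving out 1 animal at a time gave 9 to 12 calls for age in CA1, 5 to 10 in CA3 and 1 to 7 in DG; 0 to 0, 3 to 14 and 14 to 18 for diet; 0 to 0 for performance in each region; 4 to 10, 3 to 6 and 7 to 12 for CA3 against CA1, DG against CA1 and DG against CA3; 2 to 8, 3 to 14 and 12 to 14 for restricted against middle-aged; and 0 to 0 and 0 to 2 for the interactions of region with age and diet. The lowest count for CA3 against CA1, 4, was without ALO good performer 3, that for DG against CA1, 3, without ALMA 1, ALO good performer 2 or 3 or ALO poor performer 2 or 3, and the highest for DG against CA3, 12, without ALO poor performer 2. Of the single results, 735 kept direction and threshold and 108 kept direction only. Signals below the 40th percentile, which took out 4 genes here, and 3 middle-aged rats limit what could be detected.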
